A study of Sus scrofa with 48 samples.

Results

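The myosin light chains and myosin binding proteins of pig longissimus muscle were described here with 9 genes, namely the light chains MYL1, MYL2, MYL3, MYL6B and MYLPF, the light chain kinase MYLK2, and the binding proteins MYBPC1, MYBPC2 and MYBPH. A probe was taken as a member when the array files gave it one of these names as its gene or in its description. This yielded 30 probes of 60305 on the array, for 8 of the 9 genes, out of 10952 gene symbols found on the array. MYL1 had 16 probes, MYLPF 5, MYBPC1 3 and MYBPH 2, whereas MYL2, MYL6B, MYLK2 and MYBPC2 had 1 each and no probe carried the name of MYL3. All 30 were well above background on all 48 arrays and were therefore among the 42125 probes tested.

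The pigs were castrated Large White males of a low and a high line for residual feed intake (RFI), the part of feed intake that growth and maintenance needs do not account for. They made 4 groups of 12, which were low RFI and high RFI pigs fed the HF diet, with much fat and fiber, and low RFI and high RFI pigs fed the LF diet, with little of either, all with free access to feed. Each muscle was hybridised on its own 1-colour array, as complementary RNA labelled with Cy3. Because each line is 1 breeding population, a line difference cannot be told apart from drift between these 2 populations.

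In the sarcomere, each myosin head carries an essential (alkali) and a regulatory light chain. MYL1 encodes the essential light chains of fast fibres, MYL3 and MYL6B those found in slow fibres, MYLPF the regulatory light chain of fast fibres and MYL2 that of slow fibres and of the heart ventricle. MYLK2 encodes the skeletal muscle kinase that, with calcium and calmodulin, phosphorylates the regulatory light chains. MYBPC1 and MYBPC2 encode the slow and fast forms of myosin binding protein C, which holds myosin in the thick filament and modulates its cycling, and MYBPH encodes the smaller myosin binding protein H. The longissimus is a predominantly fast, glycolytic muscle.

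Values are given as the log2 of the processed spot signal minus the mean of the array, so that a difference of 1 is a doubling relative to the rest of the array. Line differences are high RFI minus low RFI over both diets, and diet differences are HF minus LF over both lines. They were tested with limma over all 42125 probes, and a probe was called at a Benjamini-Hochberg adjusted p under 0.05. Signals of different probes are not on one scale, so levels were compared between pigs and never between genes. The arrays lay on 6 slides with 2 of each group on a slide, in 2 days of scanning. No spot was saturated, and the share of spots well above background was 59.2% to 74.2% per array.

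The sequences of the probes set them apart in 1 respect that matters for what follows. Of the 5 MYLPF probes, A_72_P035721 was designed on the RefSeq mRNA and A_72_P504419 on an expressed sequence tag, and a run of 38 bases in the first is found, as its reverse complement, in the second. A_72_P504419 thus lies on the strand opposite to the mRNA. The next 3 lines give both probes as printed on the array, 5′ to 3′, and then the second turned round, with the shared 38 bases in capitals.

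A_72_P035721: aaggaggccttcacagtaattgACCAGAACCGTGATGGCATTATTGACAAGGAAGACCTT
A_72_P504419: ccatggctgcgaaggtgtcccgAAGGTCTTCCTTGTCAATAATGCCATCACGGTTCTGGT
A_72_P504419 reverse complement: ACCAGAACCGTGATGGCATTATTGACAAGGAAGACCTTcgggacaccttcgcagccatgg

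The single probe named MYL2, A_72_P434159, also came from an expressed sequence tag. Its reverse complement aligned with the turned MYLPF probe over 41 bases, of which 31 matched (75.6%), whereas the probe as printed aligned over 14 bases only. This is a likeness between related genes, and no transcript of MYL2 was aligned, so the strand of A_72_P434159 was not settled. Its alignments with A_72_P035721 scored nearly the same as printed and turned (8 and 9). The next line gives it turned round, with the matching bases in capitals.

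A_72_P434159 reverse complement: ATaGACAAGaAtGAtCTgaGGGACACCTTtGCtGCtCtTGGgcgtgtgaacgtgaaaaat

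A further pair of probes carried the older name MLC2V and the accession of the RefSeq mRNA of MYL2, for which RefSeq (Sscrofa11.1) lists MLC2V as a synonym. They were not members by name and are given beside MYL2 as A_72_P088476 and A_72_P761471. Of the other genes with several probes, the 16 of MYL1 fell into 6 separate stretches of sequence, with 14 overlapping pairs, and the MYBPH probes, shown here because they are near copies, shared the 45 bases in capitals.

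A_72_P035711: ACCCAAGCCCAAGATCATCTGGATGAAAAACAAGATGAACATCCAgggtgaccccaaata
O10905: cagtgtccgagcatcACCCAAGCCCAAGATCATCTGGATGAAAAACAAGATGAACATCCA

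Between the lines, 13 of the 30 probes differed, all 13 lower in high RFI pigs, and they belonged to the fast light chains MYL1 (10 of 16 probes) and MYLPF (3 of 5). Of all tested probes, 16.4% differed between the lines and 9.85% were lower in the high RFI line. The 16 MYL1 probes overlapped in part and varied together (median r = 0.79), so probes do not count as independent members. At the brightest probe of each gene, the rule used for the other gene lists below, no member was called. MYL6B (limma adjusted p = 0.0543) and MYL1 (0.0685) came nearest. The means of the probes of MYL1 and of MYLPF were called. The median line difference was -0.11 over the 30 probes and -0.03 over all tested probes. After quantile normalization, these medians were -0.01 and -0.02, and 1 member was called lower and 1 higher. Without the filter on dim probes 1 member was called, and of all 60305 probes 1924 were higher and 1950 lower in high RFI pigs. With 1 pig left out at a time, 7 to 17 members were called, and 6064 to 7873 of all tested probes, against 6919 in the main fit. A smaller signal from a gene of muscle fibres can come from fewer fibres of a type or from less RNA per fibre, and whole muscle does not tell these apart.

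The clearest difference was that of the opposite-strand MYLPF probe A_72_P504419. Among pigs fed the HF diet, its lowest, median and highest values were 2.81, 3.13 and 3.39 in the low RFI line (n = 12), and 2.65, 2.76 and 2.92 in the high RFI line (n = 12). Among pigs fed the LF diet, they were 2.84, 3.11 and 3.26 in the low RFI line (n = 12), and 2.53, 2.83 and 3.05 in the high RFI line (n = 12). The ranges of the lines overlapped between 2.81 and 3.05, but all 24 high RFI pigs lay below the mean of the low RFI line and all 24 low RFI pigs above the mean of the high RFI line.

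The line difference of A_72_P504419 was -0.29 ± 0.0433 (standard error, limma adjusted p = 9.18e-06, n = 24 per line), or -18.1% on the linear scale. Within the HF groups it was -0.33 ± 0.0613 (limma adjusted p = 0.00153), and within the LF groups -0.25 ± 0.0613 (limma adjusted p = 0.0162). It was the only member probe called within either diet, against 6.39% (HF diet) and 2.47% (LF diet) of all tested probes. The count of 1 with the HF diet became 12 with 75th percentile scaling, 11 with slide as a block and 8 in the deposited table, and ran from 1 to 7 when 1 pig was left out. The 6.39% belongs to the main fit, and no such share is given here for the other fits. The difference of A_72_P504419 lay between -0.35 and -0.25 on each of the 6 slides, and was -0.27 after quantile normalization (limma adjusted p = 1.04e-05). Among the 2791 other tested probes within 0.5 of its mean log2 signal, the median line difference was -0.03 and 2.69% were as low or lower. Whether the signal came from an RNA of the opposite strand or from another source was not tested.

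**Figure D1:**
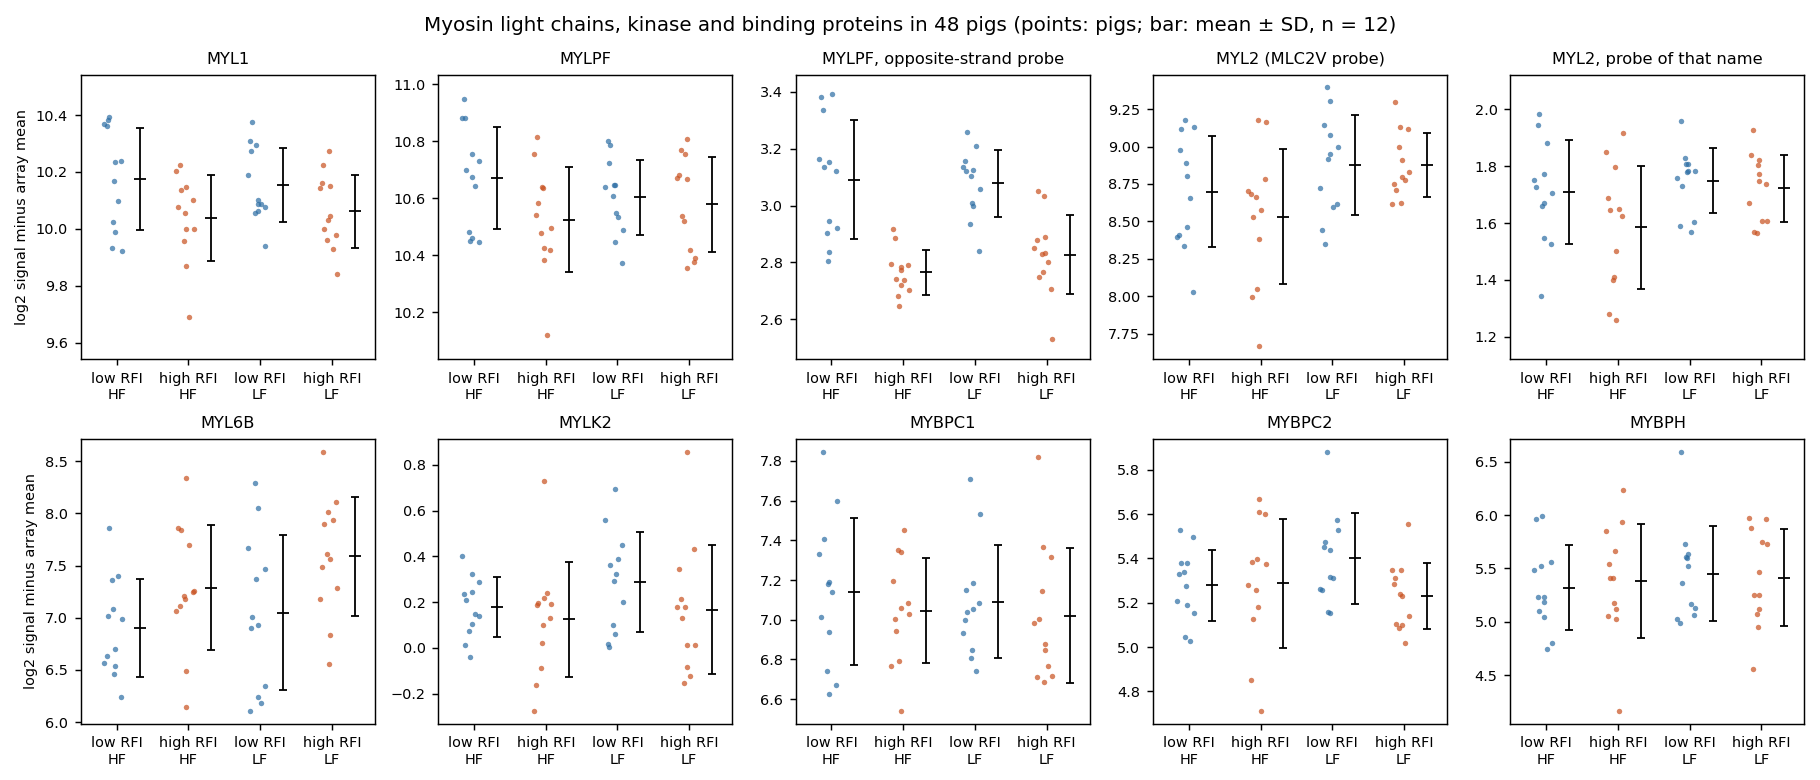
Log2 signal minus the array mean (vertical axis, own scale in each panel) of the brightest probe of each gene, of the opposite-strand MYLPF probe and of a MLC2V probe, by line and diet. Points are pigs, blue for low RFI and orange for high RFI, and bars are the mean ± SD of 12 pigs. In the panel of the opposite-strand MYLPF probe both high RFI groups sit lower, with medians of 2.76 and 2.83 against 3.13 and 3.11, whereas in the other panels the groups overlap more.

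The 4 other MYLPF probes, called mRNA-strand probes here, showed smaller differences, from -0.14 to -0.09. Only A_72_P035721 was tied to the mRNA above. A_72_P616544, A_72_P664582 and O8741 shared no run of 20 bases with it or with A_72_P504419, and their strand was not checked against a transcript. A_72_P035721, the partner of the opposite-strand probe, ran from 9.54 to 10.01 (median 9.80) in the low and from 9.14 to 9.80 (median 9.65) in the high RFI group fed the HF diet. With the LF diet, the low RFI group ran from 9.62 to 9.89 (median 9.73) and the high RFI group from 9.48 to 9.78 (median 9.65). The lines overlapped in the lower part of the low RFI and the upper part of the high RFI range. Its line difference was -0.14 ± 0.0419 (limma adjusted p = 0.0211), with 20 of 24 high RFI pigs below the low RFI mean. A_72_P616544 was called as well, at -0.13 (limma adjusted p = 0.0293), while O8741 was at -0.11 (limma adjusted p = 0.0650) and the brightest, A_72_P664582, at -0.09 ± 0.0495 (limma adjusted p = 0.236).

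MYL1, the essential light chain of fast fibres, was lower by a similar amount at each of its 16 probes, with differences from -0.12 to -0.09 and adjusted p from 0.0123 to 0.108 in limma. The brightest, A_72_P718383, ran from 9.92 to 10.39 (median 10.20) in the low and from 9.69 to 10.23 (median 10.07) in the high RFI group fed the HF diet. With the LF diet, the low RFI group ran from 9.94 to 10.37 (median 10.10) and the high RFI group from 9.84 to 10.27 (median 10.04). The ranges of the lines overlapped with either diet. Its line difference was -0.12 ± 0.0446 (limma adjusted p = 0.0685), with 20 of 24 high RFI pigs below the low RFI mean. The probe with the smallest p, A_72_P719328, was at -0.12 ± 0.0351 (limma adjusted p = 0.0123), with 22 of 24. The mean of the 16 probes differed by -0.11 ± 0.0357 (limma adjusted p = 0.0255), or -7.45% on the linear scale. MYL1 varied little from pig to pig, with pooled standard deviations within groups from 0.110 to 0.162, which were larger than those of between 0.900% and 14.9% of tested probes.

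These differences of MYL1 and of the mRNA-strand probes of MYLPF depended on the scaling between arrays. After quantile normalization they lay between -0.02 and 0.01 for MYL1 and between -0.03 and -0.01 for MYLPF, and none of these 20 probes was called (smallest limma adjusted p = 0.417). Quantile normalization left 14.9% of all tested probes called, and among the members the 2 called were A_72_P504419 and MYL6B. Both genes are among the brightest of the array, and the other 404 tested probes with a mean log2 signal above 17 had a median line difference of -0.11, with 36.9% called and 98.8% below 0, against a median of 0 and 2.97% called after quantile normalization. MYL1 and MYLPF thus sat at the value of other very bright probes, and the part of brightness in their difference was not tested.

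**Figure D2:**
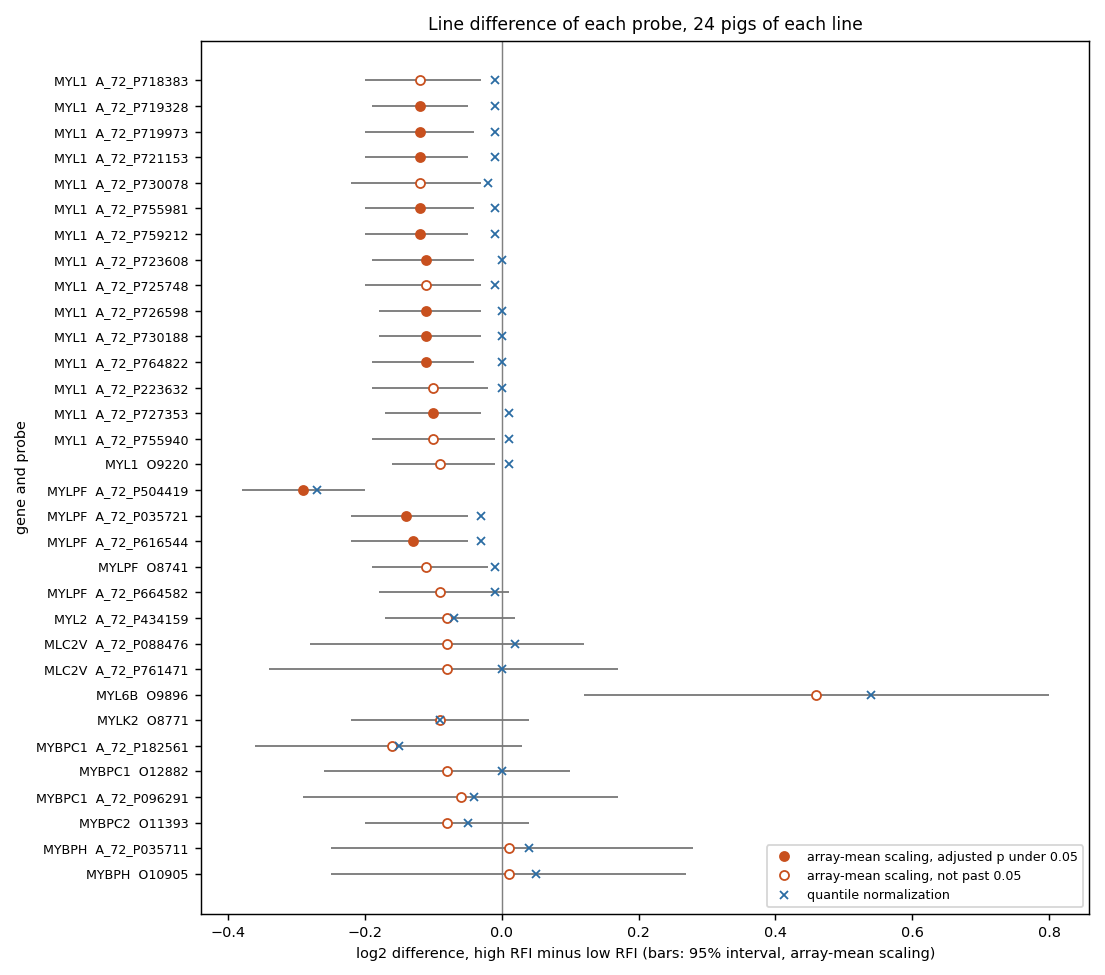
Line difference (log2, high RFI minus low RFI, n = 24 pigs per line) of the 30 member probes and both MLC2V probes, grouped by gene. Orange circles, filled where the adjusted p is under 0.05, and grey 95% intervals are from array-mean scaling, and blue crosses are from quantile normalization. The MYL1 and mRNA-strand MYLPF circles lie between -0.14 and -0.09 and their crosses between -0.03 and 0.01, whereas A_72_P504419 is at -0.29 and -0.27 and MYL6B at 0.46 and 0.54.

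MYL6B, which encodes an essential light chain of slow muscle and of non-muscle cells, differed the other way but with a wide spread between pigs. Its probe O9896 ran from 6.24 to 7.86 (median 6.85) in the low and from 6.14 to 8.33 (median 7.23) in the high RFI group fed the HF diet. With the LF diet, the low RFI group ran from 6.11 to 8.29 (median 6.97) and the high RFI group from 6.56 to 8.59 (median 7.58). The groups overlapped widely, with 20 of 24 high RFI pigs above the mean of the low RFI line. The line difference was 0.46 ± 0.169, with a 95% interval from 0.12 to 0.80, and was just short of the threshold (limma adjusted p = 0.0543). It was past the threshold after quantile normalization, at 0.54 (limma adjusted p = 0.0288), with normexp background correction (0.0434), with probes well above background on all arrays only (0.0420), with slide as a block (0.0468) and in the deposited table (0.0460). It was not past it with 75th percentile scaling (limma adjusted p = 0.0567), without the filter on dim probes (0.0820), with outlier spots kept (0.0545), with scan day as a block (0.0536) or without the brightest array (0.0705).

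The difference of MYL6B was uneven over the slides, from -0.33 to 1.09, positive on 4 and negative on 2 of the 6, and was 0.18 among the 24 pigs of 1 scan day and 0.74 among those of the other. Its pooled standard deviation within groups, 0.602, was larger than that of 90.9% of tested probes. A probe without a gene symbol, A_72_P454394, named on the array for an uncharacterized transcript, followed MYL6B with r = 0.99 over the 48 pigs and differed between the lines by 0.55 ± 0.197 (limma adjusted p = 0.0475).

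MYL6, the neighbour of MYL6B on chromosome 5 in the RefSeq table and the essential light chain of smooth muscle and non-muscle myosin, had 6 tested probes. One of them, A_72_P211657, followed MYL6B with r = 0.93 and differed by 0.20 ± 0.0904 (limma adjusted p = 0.120), whereas the others had r from 0.04 to 0.44 with MYL6B. Neither A_72_P211657 nor A_72_P454394 shared a run of 25 bases with the MYL6B probe on either strand, and shorter likeness was not searched. Since these genes encode similar proteins, signal shared between their probes cannot be told apart from common regulation here. The MYL6 probe A_72_P634370, with r = 0.04, was higher in high RFI pigs by 0.19 ± 0.0512 (limma adjusted p = 0.00865), but the brightest MYL6 probe was at 0.01 ± 0.0497 and the 5 other than A_72_P634370 were not called.

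MYL2, the slow regulatory light chain, did not pass the test between the lines at any of its probes. The probe named MYL2, A_72_P434159, ran from 1.34 to 1.99 (median 1.72) in the low and from 1.26 to 1.92 (median 1.63) in the high RFI group fed the HF diet. With the LF diet, the low RFI group ran from 1.57 to 1.96 (median 1.78) and the high RFI group from 1.56 to 1.93 (median 1.74). Its groups overlapped, and the line difference was -0.08 ± 0.0484 (limma adjusted p = 0.286). The MLC2V probe A_72_P088476 had medians of 8.73 and 8.62 with the HF diet and of 8.93 and 8.82 with the LF diet, for low and high RFI pigs respectively, with a line difference of -0.08 ± 0.100 and a 95% interval from -0.28 to 0.12. The second MLC2V probe was also at -0.08, with an interval from -0.34 to 0.17.

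For the kinase and the binding proteins no line difference was called. MYLK2 was at -0.09 ± 0.0659 (95% interval -0.22 to 0.04), and its values ran from -0.27 to 0.85 in high RFI and from -0.04 to 0.70 in low RFI pigs. The 3 probes of MYBPC1, the slow form of binding protein C, were at -0.06, -0.16 and -0.08, with the brightest ranging from 6.54 to 7.82 in high RFI and from 6.63 to 7.84 in low RFI pigs. MYBPC2, the fast form, was at -0.08 ± 0.0607 (95% interval -0.20 to 0.04), and MYBPH at 0.01 ± 0.130 (95% interval -0.25 to 0.27). MYBPH was the binding protein of widest spread (pooled standard deviation 0.461 at its brightest probe), from 4.17 to 6.23 in high RFI and from 4.74 to 6.59 in low RFI pigs. The array also held a copy of the MYBPC2 probe and of a MYBPH probe with all 60 bases in common under database names, at -0.08 and 0.02.

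**Figure D3:**
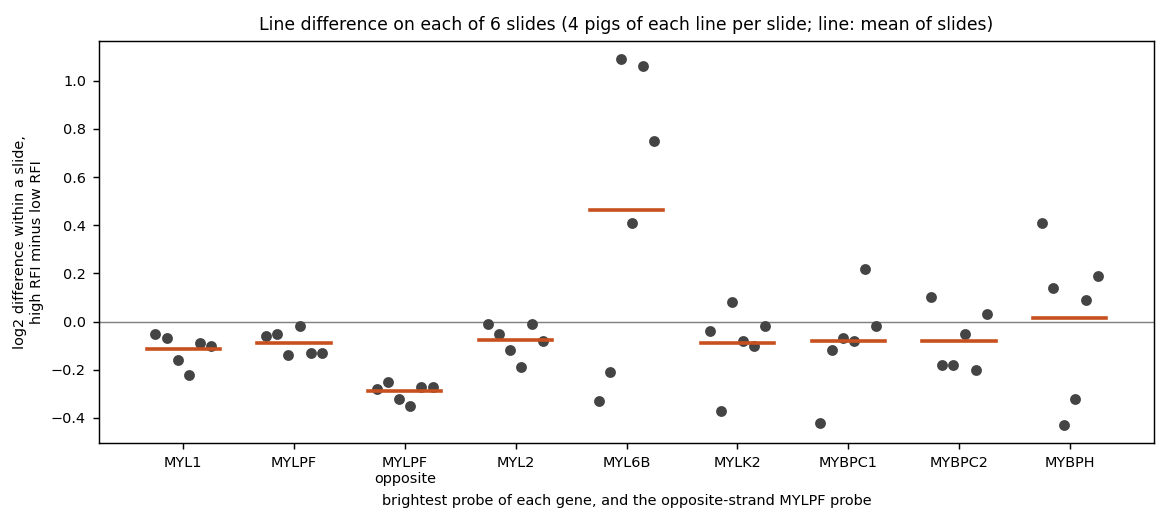
Line difference on each of the 6 slides (vertical axis, log2, high RFI minus low RFI, 4 pigs per line and slide) for the brightest probe of each gene and for the opposite-strand MYLPF probe (horizontal axis). Points are slides in the same order within each gene and orange lines are their means. The opposite-strand MYLPF probe lies between -0.35 and -0.25 on every slide, and MYL1 between -0.22 and -0.05, whereas MYL6B runs from -0.33 to 1.09 and MYBPH from -0.43 to 0.41.

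Within the diets, the line differences of MYL1, MYLPF, MYL2 and MYBPC1 were further below 0 with the HF than with the LF diet, but no difference between the diets in this respect was called. The MYL1 probes were at -0.17 to -0.13 with the HF and at -0.10 to -0.05 with the LF diet. None of the 30 probes had a called line by diet interaction, nor did any of all tested probes (0% called), and none had an unadjusted interaction p under 0.05, against 4.45% of all tested probes. On the HF diet, the probes with an unadjusted limma p under 0.05 for the line were all those of MYL1 and MYLPF. On the LF diet they were A_72_P504419 and MYL6B. The share of all tested probes at this unadjusted p within a diet is not given, so no result about the diets is read from it.

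The diets did not differ at any of the 30 probes, over both lines (smallest limma adjusted p = 0.444, 0.420% of all tested probes called) or within the low RFI (0.199% called) or high RFI line (0% called). No member had an unadjusted diet p under 0.05, whereas 13.1% of all tested probes had. The diet difference of the MYL1 probes lay between 0 and 0.03, and those of the brightest MYLPF, MYBPC1 and MYBPC2 probes at 0.01, 0.04 and -0.03. The largest was that of MYL6B, at -0.22 ± 0.169 (limma adjusted p = 0.631), with a 95% interval from -0.56 to 0.12.

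The MLC2V probes, which are not members by name, were lower on the HF diet before adjustment only. A_72_P088476 ranged from 7.67 to 9.18 (median 8.66, n = 24) on the HF and from 8.35 to 9.39 (median 8.87, n = 24) on the LF diet. The diets overlapped between 8.35 and 9.18, with the lowest values on the HF and the highest on the LF diet. The difference was -0.26 ± 0.100 (limma p = 0.0118 before and 0.226 after adjustment), and that of A_72_P761471 -0.31 ± 0.126 (limma p = 0.0184 before and 0.263 after adjustment). The probe named MYL2 was at -0.09 ± 0.0484 (limma adjusted p = 0.444).

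Across the 48 pigs, after the mean of each group was removed, MYL1 and MYLPF varied with the fast fibre genes, and MYL6B, MYBPC1 and the MLC2V probes with the slow ones. These correlations are descriptions over pigs that share the scaling of each array, and were not repeated after quantile normalization. The part of brightness in those of MYL1 and MYLPF was not tested. MYL1 and MYLPF varied together (r = 0.87 between their brightest probes), and both followed the fast myosin heavy chain MYH1, with r of 0.91 and 0.85, but not the slow heavy chain MYH7, with r of 0.21 and 0.14. Over the 14 fast fibre genes tested, the median r was 0.78 for MYL1 and 0.75 for MYLPF, and over the 12 slow fibre genes -0.11 and -0.13. The opposite-strand MYLPF probe went with the fast light chains to a lesser degree (r = 0.62 with the brightest MYLPF probe and 0.66 with MYL1). The mRNA-strand MYLPF probes had r from 0.74 to 0.90 with each other and from 0.58 to 0.62 with the opposite-strand probe.

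MYL2, MYL6B and MYBPC1 had higher median correlations with the slow than with the fast fibre genes. The MLC2V probes had r = 0.98 with each other and 0.94 and 0.93 with the slow tropomyosin TPM3. Their median r over the 12 slow fibre genes was 0.66 and 0.63, against -0.09 and -0.21 over the fast fibre genes. MYL6B (median r = 0.47) and MYBPC1 (median r = 0.52) also went with the slow fibre genes, with each other (r = 0.57) and with MLC2V (r = 0.61 and 0.58 for A_72_P088476). The probe named MYL2 had r = 0.70 with A_72_P088476 and 0.77 with MYH7, but also 0.41 with MYL1, and its median r was 0.47 over the slow and 0.26 over the fast fibre genes.

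MYLK2, MYBPC2 and MYBPH were less closely tied to either list. MYLK2 had a median r of 0.10 over the fast and -0.27 over the slow fibre genes. It had r = -0.34 with MYL6B and -0.35 with A_72_P088476, and 0.43 with the fast calcium pump ATP2A1. MYBPC2 had r = 0.58 with the heavy chain MYH2 and 0.53 with ATP2A1, and a median r of 0.34 over the fast fibre genes. MYBPH had a median r of 0.30 over the fast and 0.14 over the slow fibre genes. It had r = -0.26 with MYBPC1 and 0.30 with MYBPC2, while its 2 probes had r = 0.99 with each other.

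**Figure D4:**
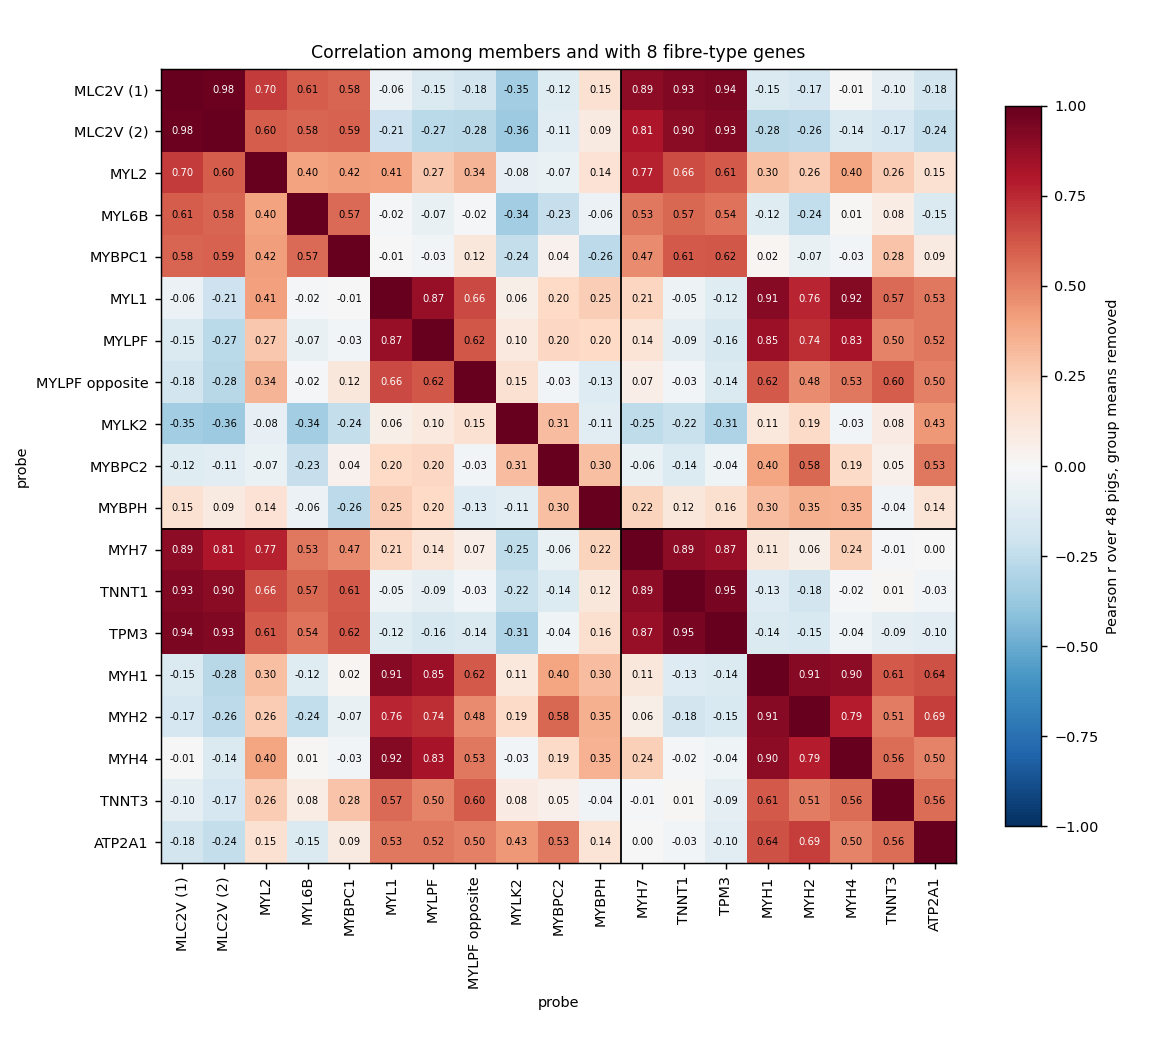
Pearson correlation over 48 pigs, group means removed, between the brightest probe of each member, the opposite-strand MYLPF probe, both MLC2V probes and 8 fibre-type genes (both axes; colour from -1 in blue to 1 in red, values printed in the cells). The black lines separate members from the slow (MYH7, TNNT1, TPM3) and fast (MYH1, MYH2, MYH4, TNNT3, ATP2A1) genes. MLC2V forms a block with the slow genes (r from 0.81 to 0.94) and MYL1 and MYLPF one with the 3 fast heavy chains (r from 0.74 to 0.92).

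Among all genes with a symbol, the likest to MYL1 were GAPDH, ACTA1 and CKM, abundant muscle mRNAs, all with r = 0.94, and those to MYLPF were RPLP1 (r = 0.95), COX3 and TPM1 (both r = 0.92). The likest to the opposite-strand MYLPF probe were VAPA and LDHA (both r = 0.74) and CYTB (r = 0.73). For MYL2 they were MYH7 (r = 0.77), TNNT1 (r = 0.66) and KCNA5 (r = 0.64), and for MYL6B, after MYL6, they were MYOZ2 (r = 0.75) and SPRP (r = 0.69). MYBPC1 was likest to DNASE2 (r = 0.85), ACTN2 (r = 0.82) and FHL1 (r = 0.81), and MYBPC2 to HAGH, SERPINB6 (both r = 0.83) and PGM1 (r = 0.82). MYLK2 was likest to CAMK2G (r = 0.76), PDE4A (r = 0.71) and THRA (r = 0.70), and MYBPH to PLP2 (r = 0.65), CCDC85B and UBE2F (both r = 0.59).

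Among 26 further genes of light chains, their kinases and phosphatase, calmodulin and the thick filament, 19 were tested at their brightest probe, and 2 rose and 4 fell in high RFI pigs, with a median of -0.09. The share called among all tested probes was 16.4%. The genes that fell were CALM3, which encodes calmodulin, by 0.38 (limma adjusted p = 1.36e-08), the myosin chaperone UNC45B by 0.44 (limma adjusted p = 2.44e-05), the methyltransferase SMYD1 by 0.25 (limma adjusted p = 0.00422) and the M-band protein MYOM2 by 0.18 (limma adjusted p = 0.00822). MYL12B, a regulatory light chain of non-muscle myosin, rose by 0.31 (limma adjusted p = 0.000275), and MYLIP, a ubiquitin ligase that binds that light chain, by 0.54 (limma adjusted p = 0.00421). Each of these 6 kept its direction and its call after quantile normalization. Over all their tested probes, CALM3 was called at 4 of 4, MYLIP at 3 of 3 and MYL12B at its 1 probe. UNC45B and SMYD1 were called at 2 of 3 each and MYOM2 at 1 of 2. At the brightest probes, the smooth muscle light chain kinase MYLK was at 0.01, the heart binding protein MYBPC3 at -0.16 (limma adjusted p = 0.153) and the catalytic subunit of myosin phosphatase PPP1CB at -0.14 (limma adjusted p = 0.0727). None of the 19 was called between the diets, against 0.420% of all tested probes. MYL12B was just short of the threshold, at -0.23 ± 0.0586 (limma adjusted p = 0.0572).

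Of the fast fibre genes, 5 of 14 fell in high RFI pigs (median -0.11), namely MYH2, TNNI2, ATP2A1, CASQ1 and ENO3, by 0.12 to 0.19, and none of these 5 was called after quantile normalization. Of the slow fibre genes, 1 of 12 rose (CASQ2, by 0.72, limma adjusted p = 0.00601) and the median was 0. None of either list was called between the diets (0.420% of all tested probes), with medians of 0.01 for the fast and -0.18 for the slow genes. Of 9 embryonic and regeneration genes tested, 3 rose in high RFI pigs (MYH3 by 1.24, CHRNA1 by 0.78 and MYOD1 by 0.39). MYOD1 was called at 1 of its 2 tested probes. Among the fast genes, MYH2 and CASQ1 were called at 2 of 5 probes each, ATP2A1 at 3 of 5, TNNI2 at 3 of 3 and ENO3 at 4 of 4. Some fast genes not called at their brightest probe were called at others, such as MYH4 at 5 of 10 and TNNT3 at 3 of 5. Beside these counts, 16.4% of all tested probes were called between the lines and 9.85% were lower in high RFI pigs.

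Markers of the cells that whole muscle holds were tested at their brightest probe as well. Of all tested probes, 16.4% were called between the lines and 9.85% were lower in high RFI pigs. Of 10 markers of the muscle fibre, 2 (TTN and MYH2) were lower in high RFI pigs and none higher. The mean level of the 10 ranged from 9.20 to 9.61 in low RFI and from 8.87 to 9.53 in high RFI pigs. After quantile normalization MYH2 was not called (limma adjusted p = 0.785), whereas TTN was (limma adjusted p = 0.000758). TTN was called at 1 of its 2 tested probes and MYH2 at 2 of 5, while CKM, not called at its brightest probe, was called at 6 of 11. Higher in high RFI pigs were 4 of 6 macrophage markers, C1QA just at the threshold (mean level -1.86 to 0.03 in low RFI and -1.08 to 1.22 in high RFI pigs), 2 of 6 adipocyte markers (0.36 to 2.40 and 0.81 to 2.62), 2 of 6 fibroblast markers (3.41 to 4.35 and 3.55 to 4.42), 1 of 5 endothelium markers (1.06 to 1.94 and 1.08 to 2.12) and 1 of 5 heart markers (-0.14 to 1.03 and -0.15 to 1.19). Of 5 nerve and Schwann cell markers, 1 was higher and 1 lower (0.25 to 1.97 and -0.10 to 1.46), and none of 6 smooth muscle (4.38 to 5.08 and 4.03 to 5.06), 3 blood (-1.58 to -0.19 and -2.08 to 0.03) and 2 satellite cell markers (-2.76 to -1.50 and -3.12 to -0.98) was called. No marker on the array was below background in all pigs. The part of these cells in the line differences of MYL6B, MYL6 and MYL12B, which non-muscle cells also express, was not tested.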

How the data were processed

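Intensities were deposited by the authors as Agilent Feature Extraction 10.7.3.1 output of 48 1-colour arrays, background subtracted but not scaled between arrays. The authors also deposited a table of log2 values, which equals each spot's median signal on the log2 scale, less the array's median, over 34472 spots and was used as an alternative. The submitters' processing notes name R 2.10.0.

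Outlier spots (256 over all arrays) were removed, spots of 1 probe were averaged, and log2 processed signals were centred per array on their mean over tested probes, those well above background on 12 arrays or more. Group means were fitted in limma 3.58.1 (R 4.3.3), with Benjamini-Hochberg adjustment over all 42125 probes, in a fit checked on simulated data. Medians and intervals describe pigs, and the number of arrays limits their precision. Members, gene lists and comparisons were chosen with earlier results of these data known. For each member the brightest probe came first, then its other probes, and for each member the 3 non-member symbols of highest correlation were named. In the other lists, called genes and a few uncalled ones were named at the brightest probe. The opposite-strand probe was singled out because it was called and its sequence differed. Member probes were compared on both strands, with at least 20 shared bases taken as an overlap. Gene synonyms and neighbours came from RefSeq Sscrofa11.1, whose coordinates were not used because the array files name no build.

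Alternatives were the 75th percentile and quantile scaling, normexp correction with an offset of 50, 2 other filters, outlier spots kept, slide or scan day as a block, the deposited table, the variance analysis of the methods, fits of only the groups compared, and means of a gene's probes. Leaving out the brightest array or each pig in turn was added after seeing the data.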

Additional observations from a re-analysis of the deposited data

How the results depend on the processing

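The 13 member probes called between the lines became 2 with quantile normalization, 1 without the filter on dim probes, 8 without the brightest array (high RFI pig 45, HF diet) and 21 at an unadjusted p in the methods' variance analysis, and stayed between 11 and 19 in the other fits of all pigs. Leaving out 1 pig at a time gave 7 to 17. The count was 7 without low RFI LF pig 11 or high RFI LF pig 13, and 8 without low RFI HF pigs 3, 32 or 46, high RFI HF pig 45 or high RFI LF pigs 22 or 48. Among all tested probes, 16.4% were called in the main fit and 14.9% after quantile normalization. Without the filter, 1924 of 60305 probes were higher and 1950 lower. Of 42125 probes, 2945 were higher and 3955 lower without the brightest array, and 3133 and 5283 with slide as a block. They were 2721 and 4638 with 75th percentile scaling, 2705 and 2985 with normexp, and 2951 and 4591 with scan day as a block. With outlier spots kept they were 2753 and 4154. In the deposited table they were 2278 and 3843 of 34472, and with probes above background on all arrays 2677 and 3520 of 32719. With 1 pig left out, 6064 to 7873 probes were called. Such shares are not given for the variance analysis or for the counts within a diet in the other fits. The 1 probe called on the HF diet became 12 with 75th percentile scaling, 11 with slide as a block, 8 in the deposited table, 4 with probes above background on all arrays only, 3 with normexp or scan day as a block and 2 with outlier spots kept, and 1 to 7 with 1 pig left out. The 1 probe called on the LF diet was lost without the filter (0). A_72_P504419 kept its call between the lines in every limma fit here, with adjusted p from 2.69e-06 to 1.98e-05 when 1 pig was left out, and 4.92e-05 without the filter. MYL6B had adjusted p from 0.0255 to 0.0845 over the 48 fits with 1 pig left out, and was called in 12 of them, without low RFI pigs 8, 25, 49 (HF), 20, 23, 42 or 54 (LF) or high RFI pigs 18, 26 (HF), 7, 16 or 55 (LF). The mean of the 5 MYLPF probes, which holds the opposite-strand probe, was called (-0.15, adjusted p = 0.00734). The brightest MYL1 probe was called with 75th percentile scaling (0.0402), with slide as a block (0.0336) and in the deposited table (0.0412). Diet differences near 0 changed sign without being called. That of MYL1 was 0.02 with 75th percentile scaling and in the deposited table and 0.01 with normexp, probes above background on all arrays, the mean of its probes and without the brightest array, and those of MYLPF and A_72_P504419 were 0 with quantile normalization. No diet or interaction call appeared among the members in any fit. Causes of these changes were not tested, other than that the fit without the filter tested 60305 probes. No paired analysis was possible because no pig belongs to 2 groups. The number of arrays limits the precision. MYLK2 and the probe named MYL2 were the dimmest member probes but were well above background on all 48 arrays. Among the brightest probes of the genes, the widest standard errors of the line difference were those of MYL6B (0.169) and MYBPH (0.130).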
